A study of Mus musculus with 16 samples.

Results

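The 10 chemokine genes measured in brain CD11b+ cells described here are Ccl2, Ccl3, Ccl4, Ccl6, Ccl7, Ccl9, Ccl12, Cxcl2, Cxcl9 and Cxcl16. They were taken by symbol from a table of 55385 listed genes, all 10 were present, and all 10 were among the 14513 genes that passed the filter on low counts. RNA was sequenced from cells pulled from whole brain with anti-CD11b magnetic beads, in 16 libraries from female mice of 20 weeks, with 4 libraries in each of 4 genotypes. WT mice carried neither the transgenes nor the deletion. Card9-/- mice carried a germline deletion of Card9, 5xFAD mice carried the 5xFAD transgenes, mutant human APP among them, under the neuronal Thy1 promoter with intact Card9, and Card9-/-5xFAD mice carried both changes. CARD9 is an adaptor protein that links pattern recognition receptors to NF-kB in myeloid cells, and the study asked whether its loss alters the response of microglia to amyloid. Nothing in the labels ties a library to a litter or a sorting day, so the p-values measure the spread between these 4 libraries per genotype.

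Chemokines are small secreted proteins that bind G protein-coupled receptors on leukocytes and draw them along a gradient. They are named for the spacing of their first cysteines, as CC (Ccl) or CXC (Cxcl) ligands. Microglia are the resident macrophages of the brain, and several CC ligands, above all Ccl3, Ccl4, Ccl6 and Ccl9, are known to be made by microglia gathered around amyloid plaques. Several of the same transcripts are also induced quickly when microglia are taken out of the tissue.

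Between 2970148 and 19333325 reads per library were counted on genes, with a median of 7944265. Libraries of the same genotype all differed by more than sampling noise (chi-square per degree of freedom of at least 6.28 over 24 pairs). All 10 microglia markers, P2ry12, Tmem119 and Sall1 among them, were detected in every library with at least 500 counts each, which fits the label of the cells. The targeted gene was still counted in every library, and no fall with its label passed the test. Card9 was at 13.6, 51.3, 43.2 and 39.3 CPM (read counts normalised to library size) in WT. In the libraries labelled Card9-/- it was at 31.6, 34.8, 33.2 and 16.7 CPM, a log2 change of -0.34 ± 0.45 (SE; edgeR adjusted p = 0.97). WT replicates 2, 3 and 4 lay above every library labelled Card9-/-, and WT replicate 1 lay below them all. Card9 stood at 15.6 to 33.5 CPM in 5xFAD and at 9.73 to 33.7 CPM in the libraries labelled Card9-/-5xFAD, a log2 change of -0.44 ± 0.45 (edgeR adjusted p = 0.993). Gene-wide counts do not show which exons of Card9 were deleted, so the genotype rests on the labels, and every Card9 comparison below is a comparison of libraries so labelled.

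1 library in each genotype stood apart from the other 3. The summed CPM of the microglia markers was 11795 in WT replicate 1, 13346 in Card9-/- replicate 4, 13500 in 5xFAD replicate 1 and 11615 in Card9-/-5xFAD replicate 4, against 19466 to 33653 in the remaining libraries. In each genotype the same library had the highest summed CPM of the 8 neutrophil markers, at 3607, 6317, 2102 and 5988 CPM. The mean log2 CPM of these markers did not follow the sum in WT and 5xFAD. It was 6.75 in WT replicate 1 against 7.28 in WT replicate 3, and 5.99 in 5xFAD replicate 1 against 6.67 in 5xFAD replicate 3. In all 4 genotypes the libraries of lowest microglia marker sum had the highest values of 5 of the chemokines, Ccl3, Ccl4, Ccl12, Cxcl2 and Cxcl9. Log2 changes of the chemokines from a fit without these 4 libraries, a choice made after the values were seen, are given beside those of all 16. Whether fewer cells of a type or less RNA per cell lies behind a lower level cannot be told apart in bulk RNA.

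7 of the 10 genes lie in the CC chemokine clusters of mouse chromosome 11 (GRCm38). The 3 genes on the plus strand that encode monocyte attractants come first, Ccl2 at chr11:82035571-82037453, Ccl7 after a gap of 8.26 kb, and Ccl12 54.3 kb further. The second group holds Ccl9 at chr11:83572919-83578636, Ccl6 at chr11:83587882-83593087 and Ccl3 at chr11:83647844-83649355, all on the minus strand, followed by Ccl4 on the plus strand at chr11:83662584-83664683. Ccl9 and Ccl6 are neighbours separated by 9.24 kb, and Ccl3 and Ccl4 point away from each other across 13.2 kb. Cxcl16 lies elsewhere on chromosome 11 (chr11:70453983-70459984, minus strand), and Cxcl2 (chr5:90903871-90905938) and Cxcl9 (chr5:92321347-92328079) lie on chromosome 5. In the annotation, 552 exon bases of Cxcl16, 18.3% of its exon length, are shared with Zmynd15 on the opposite strand, and the strand setting of the counting is not given in the sources used here. Zmynd15 itself had only 3.78 to 13.4 CPM and did not pass the test in any comparison.

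The sequences upstream of Ccl6, Ccl9 and Ccl3, adjacent genes on the minus strand, are shown. Of these, only Ccl6 passed in both pairs of genotypes that differ by the transgenes. Ccl3 varied the most of them between libraries of 1 genotype, with an SD of log2 CPM of 0.86 against 0.44 for Ccl6 and 0.49 for Ccl9. No test compared the genes with each other. Each line holds the 250 bases before the transcript start of RefSeq (GRCm38.p6), read 5′ to 3′ on the minus strand, for chr11:83593088-83593337, chr11:83578637-83578886 and chr11:83649379-83649628 in this order. Capitals mark matches on either strand to a TATA box (TATAAA), an AP-1 site (TGANTCA) or an NF-kB consensus site.
Ccl6: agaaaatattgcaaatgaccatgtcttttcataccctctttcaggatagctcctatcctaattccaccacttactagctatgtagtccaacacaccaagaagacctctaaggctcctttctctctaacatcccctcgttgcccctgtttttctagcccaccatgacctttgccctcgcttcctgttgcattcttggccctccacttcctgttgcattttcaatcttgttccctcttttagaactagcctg
Ccl9: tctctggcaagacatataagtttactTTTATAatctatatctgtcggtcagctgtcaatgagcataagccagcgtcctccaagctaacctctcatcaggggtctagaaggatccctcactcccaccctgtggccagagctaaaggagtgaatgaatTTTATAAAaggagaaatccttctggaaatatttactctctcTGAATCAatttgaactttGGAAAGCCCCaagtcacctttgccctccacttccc
Ccl3: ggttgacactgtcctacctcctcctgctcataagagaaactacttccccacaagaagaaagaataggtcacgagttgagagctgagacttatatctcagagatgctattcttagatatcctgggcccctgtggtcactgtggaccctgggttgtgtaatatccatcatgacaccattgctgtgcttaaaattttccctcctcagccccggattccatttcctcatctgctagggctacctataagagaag
Neither Ccl6 nor Ccl3 held any of these words in this window. Ccl9 held 3 TATA words, 2 of which overlap (87 to 92 and 89 to 94 bases before the start), an AP-1 word 47 to 53 bases before the start, and an NF-kB word 26 to 35 bases before it. Over 32851 promoter windows of the same length, 12.4% held the TATA word, 6.75% the AP-1 word and 3.9% the NF-kB consensus. Of the 6 chemokines with an entry in the table, Ccl12 and Cxcl9 also held the TATA word, and Cxcl2 held 2 overlapping NF-kB words 87 to 97 bases before the start. A match to these letters is a description and not evidence of a bound site.

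Per kilobase of exon, Ccl4 and Ccl3 were the most abundant of the 10 transcripts. Over all 16 libraries the median level was 2580.4 CPM per kb for Ccl4 and 1382 for Ccl3, followed by Ccl6 at 844, Ccl12 at 678, then Ccl7, Ccl2 at 119, Ccl9 at 94.8, Cxcl16 at 47.5, Cxcl2 at 11 and Cxcl9 at 1.25 CPM per kb. Neighbours in this order mostly overlapped in range, for example Ccl4 at 473 to 9795 and Ccl3 at 318 to 3866 CPM per kb. The order moved with genotype. In 5xFAD libraries the mean level of Ccl6, 1989 ± 515 CPM per kb (SD, n = 4), was about that of Ccl3, 2096 ± 609, while in WT it was 454 ± 158 against 1157 ± 1129 CPM per kb.

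**Figure D1:**
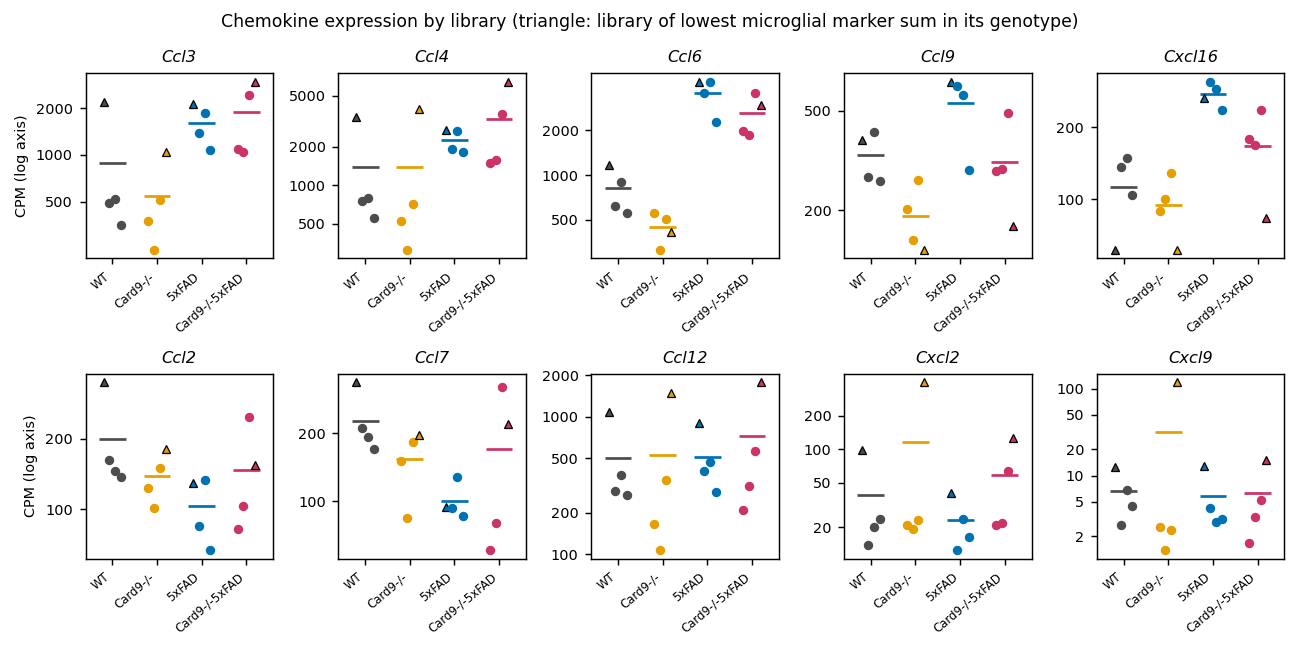
Expression of the 10 chemokines in CPM on a log axis, 1 panel per gene, with 1 point per library and a bar at the mean of the 4 libraries of each genotype. Triangles mark the library of lowest microglia marker sum in its genotype. Ccl6 lies between 1852 and 4239.9 CPM in all 8 transgenic libraries and between 314 and 1177 CPM in all 8 others, while Ccl12, Cxcl2 and Cxcl9 are set by the triangles.

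The first comparison asks which chemokines differ with the 5xFAD transgenes. Only Ccl6 and Cxcl16 rose in 5xFAD against WT, and only Ccl6 rose in Card9-/-5xFAD against Card9-/- (edgeR, adjusted p under 0.1). Across all tested genes 1.57% were called higher and 0.524% lower in 5xFAD against WT, and 1.49% higher and 0.482% lower in Card9-/-5xFAD against Card9-/-. When both Card9 genotypes were averaged, 8 transgenic against 8 other libraries, Ccl6, Cxcl16 and Ccl3 rose and none of the 10 fell, against 5.62% of all genes called higher and 5.73% called lower. The median log2 change of the 10 genes was 0.36, 0.59 and 0.47 in the 3 comparisons, where the median over all genes was -0.15 in each.

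Ccl6 encodes a CC ligand of mouse macrophages that signals through CCR1. It was counted at 1177, 624, 903 and 558 CPM in WT and at 4219, 3552, 4239.9 and 2271 CPM in 5xFAD. In Card9-/- it was at 557, 314, 504 and 416 CPM, and in Card9-/-5xFAD at 1984, 1852, 3565 and 2965 CPM. The lowest transgenic library thus lay above the highest library without the transgenes in both Card9 genotypes. The log2 fold change was 2.13 ± 0.34 (SE) in 5xFAD against WT (4.38-fold, edgeR adjusted p = 0.00299) and 2.53 ± 0.35 in Card9-/-5xFAD against Card9-/- (5.78-fold, edgeR adjusted p = 0.00077). Over both Card9 genotypes it was 2.33 ± 0.25 (5.03-fold, edgeR adjusted p = 1.65e-05), and the 8 transgenic libraries did not overlap the 8 others, as for 1.19% of all genes in that direction. Ccl6 passed the threshold in both transgene comparisons in each of the 16 fits that left out 1 library, and its log2 change stayed between 1.87 and 2.72 over all alternatives tried. Without the 4 libraries of lowest microglia marker sum it was 2.31 and 2.46.

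Cxcl16 encodes a transmembrane chemokine that binds CXCR6, also acts as a scavenger receptor for oxidized lipoprotein, and is released by the proteases ADAM10 and ADAM17. It was at 61.6, 137, 149 and 104 CPM in WT and at 263, 309, 289 and 236 CPM in 5xFAD. Every 5xFAD library thus lay above every WT library, as for 4.35% of all genes in that direction. In Card9-/- Cxcl16 was at 89.5, 100.3, 129 and 61.8 CPM and in Card9-/-5xFAD at 178, 169, 236 and 83.7 CPM, where the last library fell among the Card9-/- values. The log2 fold change was 1.28 ± 0.35 in 5xFAD against WT (2.42-fold, edgeR adjusted p = 0.0967) and 0.81 ± 0.34 in Card9-/-5xFAD against Card9-/- (1.75-fold, edgeR adjusted p = 0.34). The first call lay at the threshold, since it passed in only 2 of the 16 fits without 1 library, those without Card9-/- replicate 4 and without Card9-/-5xFAD replicate 4, with an edgeR adjusted p up to 0.314. Averaged over Card9 genotype the log2 change was 1.04 ± 0.24 (edgeR adjusted p = 0.0172), and this call was kept in all 16 such fits. Without the 4 libraries of lowest microglia marker sum Cxcl16 passed in both transgene comparisons, at log2 changes of 1.13 and 0.90, and in the average, at 1.01. In the same order that fit called 1144, 2394 and 4948 of all genes, against 304, 286 and 1647 with all 16 libraries. Adam10 and Adam17 were tested and neither passed in any comparison.

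Ccl3 and Ccl4 encode macrophage inflammatory proteins, and Ccl3 signals through CCR1 among other receptors. Ccl3 was at 2179.8, 491, 521 and 355 CPM in WT against 2112, 1389, 1853 and 1069 CPM in 5xFAD. 3 WT libraries lay below every 5xFAD library, and WT replicate 1 lay above them all. In the other pair Ccl3 was at 376, 244, 513 and 1037 CPM in Card9-/- and at 1084, 1049, 2435 and 2962 CPM in Card9-/-5xFAD, with the nearest libraries at 1037 and 1049 CPM. That pair therefore did not overlap, as for 3.53% of all genes in that direction. The log2 fold change was 0.86 ± 0.58 in 5xFAD against WT (edgeR adjusted p = 0.633), 1.80 ± 0.59 in Card9-/-5xFAD against Card9-/- (edgeR adjusted p = 0.189) and 1.33 ± 0.41 in the average (2.51-fold, edgeR adjusted p = 0.0671). The average kept its call in only 6 of the 16 fits without 1 library, and it was lost when any of WT replicates 2, 3 and 4, Card9-/- replicates 1, 2 and 3, 5xFAD replicates 1, 2 and 3 or Card9-/-5xFAD replicate 3 was left out (edgeR adjusted p up to 0.132). Without WT replicate 1 the log2 change in 5xFAD against WT was 1.81 ± 0.50 (edgeR adjusted p = 0.112).

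Ccl4 followed Ccl3. It was at 3444, 755, 797 and 558 CPM in WT and at 2686, 1915, 2653 and 1821 CPM in 5xFAD, and at 522, 312, 719 and 3978 CPM in Card9-/- against 1506, 1585, 3603 and 6465 CPM in Card9-/-5xFAD. 1 library without the transgenes in each pair, WT replicate 1 and Card9-/- replicate 4, reached the transgenic values, where for Ccl3 only WT replicate 1 had. No comparison of Ccl4 passed with all libraries, with log2 changes of 0.71 ± 0.75 and 1.25 ± 0.76 (edgeR adjusted p = 0.785 and 0.538). Without the 4 libraries of lowest microglia marker sum, Ccl3 and Ccl4 both passed in both transgene comparisons, at log2 changes of 1.70 and 2.04 for Ccl3 and of 1.64 and 2.14 for Ccl4, with edgeR adjusted p between 0.00615 and 0.0309, and both passed in the average, at 1.87 and 1.89. Of all genes, 1144 and 2394 passed in the same comparisons of that fit and 4948 in its average.

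Ccl9, the neighbour of Ccl6 and likewise a CCR1 ligand, was at 383, 272, 411 and 262 CPM in WT and at 655, 631, 577 and 289 CPM in 5xFAD. It was at 203, 152, 264 and 139 CPM in Card9-/- and at 288, 294, 493 and 174 CPM in Card9-/-5xFAD. 3 of 4 transgenic libraries in each pair lay above all libraries without the transgenes, and the fourth lay among them. The log2 change was 0.70 ± 0.36 and 0.72 ± 0.36 in the 2 pairs and 0.71 ± 0.25 in the average, where it just missed the threshold (edgeR adjusted p = 0.105). It passed in 4 of the 16 fits without 1 library, those without WT replicate 1, Card9-/- replicate 3, 5xFAD replicate 4 or Card9-/-5xFAD replicate 4, with the lowest edgeR adjusted p at 0.0433. Without the 4 libraries of lowest microglia marker sum the log2 changes of Ccl9 were 0.70 and 0.82, neither of which passed, and the average of 0.76 passed (edgeR adjusted p = 0.0343).

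The monocyte attractants Ccl2, Ccl7 and Ccl12, ligands of CCR2, did not pass in any transgene comparison. Ccl2 was at 348, 163, 145 and 137 CPM in WT and at 129.7, 84.9, 133 and 67.1 CPM in 5xFAD, and Ccl7 at 337, 211, 192 and 169.7 CPM in WT and at 94.3, 93.6, 128 and 85.7 CPM in 5xFAD. For both genes every 5xFAD library lay below every WT library, as for 3.69% of all genes, where the opposite separation held for 4.35%. The log2 changes were -0.94 ± 0.40 for Ccl2 and -1.18 ± 0.45 for Ccl7 (edgeR adjusted p = 0.395 and 0.324). In the Card9-/- pair the same genes overlapped, with Ccl2 at 123, 101, 149.5 and 180.2 CPM in Card9-/- and 82.7, 103, 248 and 155 CPM in Card9-/-5xFAD, and Ccl7 at 151, 84.0, 182 and 196 CPM and 60.6, 80.3, 319 and 219 CPM. Log2 changes there were 0.09 ± 0.39 and 0.15 ± 0.45, and the difference between the pairs did not pass the interaction test (1.02 ± 0.56 for Ccl2 and 1.33 ± 0.64 for Ccl7, edgeR adjusted p = 1 for both). Ccl12 was at 1082, 289, 379 and 272 CPM in WT and at 897, 407, 473 and 282 CPM in 5xFAD, a log2 change of 0.03 ± 0.79 with a 95% interval from -1.65 to 1.71. None of the 3 genes passed without the 4 libraries of lowest microglia marker sum, and the log2 changes in 5xFAD against WT were -0.61 for Ccl2, -0.86 for Ccl7 and 0.34 for Ccl12.

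Markers of border-associated macrophages, which live at the surfaces of the brain, moved with the transgenes. The sum of the 8 markers lay between 794 and 1006 CPM in WT and between 461 and 498 CPM in 5xFAD. 3 of the 8 (Mrc1, Lyve1 and F13a1) fell, where 0.524% of all genes were called lower. In the other pair the markers summed to 802 to 1075 CPM in Card9-/- and 337 to 768 CPM in Card9-/-5xFAD. Only Mrc1 fell there, where 0.482% of all genes were called lower. The part of these markers in the lower values of Ccl2 and Ccl7 was not tested.

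The 2 CXC ligands of blood-borne leukocytes were scarce. Cxcl2, which draws neutrophils through CXCR2, was at 98.2, 14.0, 20.1 and 23.8 CPM in WT, 40.5, 12.5, 23.9 and 16.3 CPM in 5xFAD, 20.9, 19.5, 23.4 and 399 CPM in Card9-/- and 20.9, 22.0, 64.5 and 126 CPM in Card9-/-5xFAD. Cxcl9, an interferon-gamma-induced ligand of CXCR3, was at 12.5, 2.65, 6.84 and 4.49 CPM in WT, 12.9, 4.25, 2.88 and 3.13 CPM in 5xFAD, 2.52, 1.37, 2.37 and 120.4 CPM in Card9-/- and 1.68, 3.31, 5.21 and 15.2 CPM in Card9-/-5xFAD. Both were highest in each genotype in the library of lowest microglia marker sum, and Card9-/- replicate 4 held by far the highest value of each. Neither passed a transgene comparison. The log2 change of Cxcl9 in Card9-/-5xFAD against Card9-/- was -2.36 ± 1.21 with all libraries and 1.52 without Card9-/- replicate 4, and that of Cxcl2 was -0.99 ± 0.95 and 1.43.

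**Figure D2:**
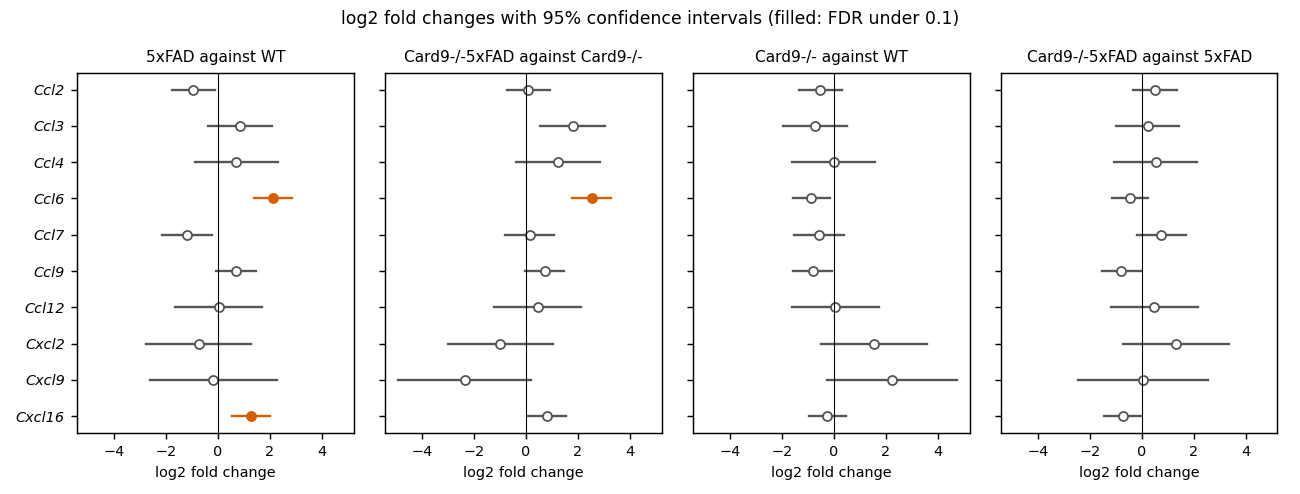
Log2 fold change of the 10 chemokines in 4 comparisons, with 95% confidence intervals from the edgeR fit of 16 libraries. Filled points passed an adjusted p of 0.1. In 5xFAD against WT these are Ccl6 at 2.13 and Cxcl16 at 1.28, in Card9-/-5xFAD against Card9-/- only Ccl6 at 2.53, and none passed in the 2 comparisons of Card9 genotype.

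The second comparison asks whether the chemokines differed between libraries labelled by Card9 genotype, without and with the transgenes. No chemokine passed in Card9-/- against WT, in Card9-/-5xFAD against 5xFAD or in the interaction, and across all 14513 genes 0% passed in each of the 3 tests by edgeR. At an unadjusted p under 0.05 edgeR gave 597, 366 and 78 genes, 2, 1 and 0 of them among the 10 chemokines. DESeq2 on all 16 libraries called 5, 2 and 1 genes, and DESeq2 on only the groups compared called 8 and 9 in the 2 comparisons, none of them among the 10 chemokines.

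Ccl6 and Ccl9 were the members with an unadjusted p under 0.05. In Card9-/- against WT the log2 change of Ccl6 was -0.86 ± 0.33 (edgeR adjusted p = 0.97), and its highest Card9-/- library, at 557 CPM, lay just below the lowest WT library, at 558 CPM. Such a separation, lower in Card9-/-, was seen for 1.6% of all genes. The change of Ccl9 was -0.81 ± 0.36 in Card9-/- against WT and -0.79 ± 0.36 in Card9-/-5xFAD against 5xFAD (edgeR adjusted p = 0.97 and 0.993). Without the 4 libraries of lowest microglia marker sum these values were -0.60 for Ccl6 and -0.61 and -0.49 for Ccl9. Neither gene passed the adjusted threshold under any alternative.

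In the transgenic pair none of the 10 genes separated the libraries of Card9-/-5xFAD from those of 5xFAD, while 1.89% of all genes did in one direction or the other. The log2 change of Ccl6 was -0.46 ± 0.33, with a 95% interval from -1.16 to 0.24, and that of Cxcl16 was -0.72 ± 0.34, with an interval from -1.44 to 0.01. Ccl3 and Ccl4 gave 0.23 ± 0.58 and 0.54 ± 0.75, with intervals from -0.99 to 1.45 and from -1.05 to 2.12. These changes without the 4 libraries of lowest microglia marker sum were -0.45 for Ccl6, -0.52 for Cxcl16, 0.08 for Ccl3 and 0.06 for Ccl4, and none passed. The transgene effect on Ccl6 differed between the Card9 genotypes by 0.40 ± 0.47 on the log2 scale (edgeR adjusted p = 1).

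The 10 genes differed in how far they varied between libraries of 1 genotype. The SD of log2 CPM within genotype was 0.44 for Ccl6, 0.49 for Ccl9 and Cxcl16, 0.56 for Ccl2 and 0.68 for Ccl7, and rose to 0.86 for Ccl3, 1.12 for Ccl4, 1.22 for Ccl12, 1.42 for Cxcl2 and 1.71 for Cxcl9, where the median of all genes was 0.62. Of all tested genes, 98.7% varied less than Cxcl9 and 23.5% less than Ccl6.

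Members varied together in sets after the mean of each genotype had been subtracted. Over the 16 libraries Pearson's r was 0.95 between Ccl3 and Ccl4 (Spearman's rho 0.97), 0.95 between Ccl4 and Ccl12 (0.92), 0.93 between Cxcl2 and Cxcl9 (0.87), and 0.87 between Ccl2 and Ccl7 (0.91). Without the 2 libraries farthest from the median of the first gene, these were 0.95, 0.93, 0.88 and 0.81. The neighbours Ccl6 and Ccl9 were less alike, at 0.63 (rho 0.63). Cxcl16 and Ccl9 gave 0.58 (rho 0.58), while Cxcl16 gave -0.66 with Ccl4 (rho -0.36) and -0.70 with Cxcl2 (rho -0.55), values that came to -0.39 and -0.52 without the farthest 2 libraries. These values are descriptions, since the points share libraries, depth and the properties of the libraries described next.

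Libraries differed in how expression depended on transcript length. The slope of log2 CPM, taken relative to each gene's mean over 16 libraries, on log2 exon length ran from -0.22 in 5xFAD replicate 1 to 0.29 in Card9-/- replicate 2 across 13539 genes, so short transcripts were relatively high in libraries with a negative slope. The 4 libraries of lowest microglia marker sum had slopes of -0.14, -0.14, -0.22 and -0.15. All 10 chemokines are shorter than the median exon length of the tested genes, 3976 bases, with Ccl12 the shortest at 537 bases and Ccl9 the longest at 3045. Within genotype, r between the slope and log2 CPM lay between -0.74 (Ccl6) and -0.91 (Ccl12) for 8 of the 10 genes, and it was -0.26 for Ccl9 and 0.37 for Cxcl16. 3 of 4 5xFAD libraries had negative slopes, at -0.22, -0.12 and -0.15, against 2 of 4 in WT, at -0.14 and -0.01. With the slope as a covariate, chosen after the values were seen, Ccl6 stayed called at log2 changes of 1.87 and 2.18, Cxcl16 stayed called in 5xFAD against WT at 1.40, and Ccl2 and Ccl7 passed as lower in 5xFAD against WT at -1.28 and -1.54 (edgeR adjusted p = 0.00563 and 0.00696). In 5xFAD against WT this fit called 461 of all genes higher and 455 lower, where the fit without the covariate called 228 and 76. In Card9-/-5xFAD against Card9-/- it called 460 higher and 385 lower, against 216 and 70. Ccl3 passed in Card9-/-5xFAD against Card9-/- at 1.20. The part of the slope in these values was not otherwise tested.

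**Figure D3:**
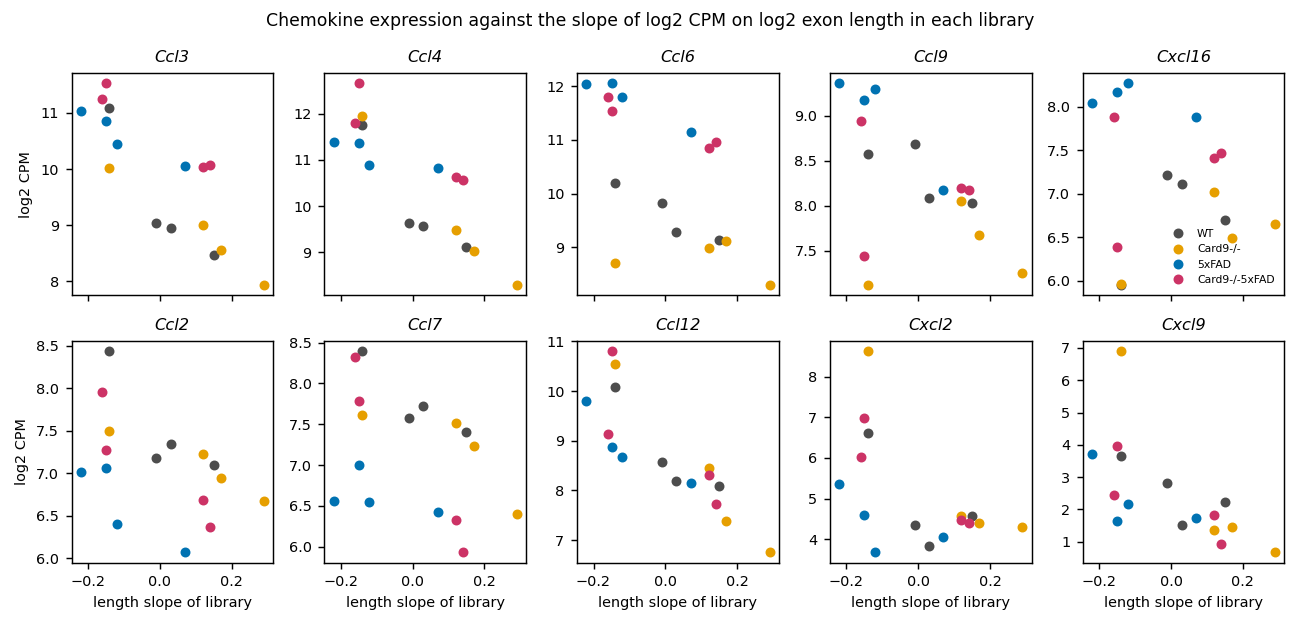
Log2 CPM of each chemokine against the slope of expression on exon length of the same library, 1 point per library, coloured by genotype. Ccl3, Ccl4 and Ccl12 mostly run down from left to right within each genotype, with r of -0.90, -0.89 and -0.91, Ccl6 keeps the transgenic libraries above the others along the whole axis, and Cxcl16 shows no such run (r = 0.37).

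The genes most like each chemokine across the 16 libraries were listed by Pearson's r of log2 CPM. As measured, Ccl6 was most like Syngr1 and Ramp1 (r = 0.99) and Creg1 (r = 0.98), Cxcl16 like Pebp1, Ctsz and Ogfod3 (r = 0.97), Ccl9 like Polr2e, Pdcd6 and Gm12989 (r = 0.97), Ccl4 like Gng5, Ndufa1 and Gm10095 (r = 0.97), and Ccl3 like Tmem205, Cox4i1 and Ssr4 (r = 0.96). Ccl2 and Ccl7 were each other's closest match (r = 0.91), followed by Ssc4d and Gm15912 for Ccl2 and by Gm15912 and Ccl24 for Ccl7. Ccl12 was most like Gm7846, Acyp1 and Med31 (r = 0.98 to 0.99), Cxcl2 like Ercc5, 5031425E22Rik and Eaf2 (r = 0.97), and Cxcl9 like Gm41611, Mitd1 and 9330159M07Rik (r = 0.95 to 0.96). After subtracting genotype means, Ccl6 was most like Ndufv2, Trappc6a and Immp1l (r = 0.95 to 0.96), Ccl12 like Xaf1, Ndufaf4 and Ifitm3 (r = 0.99), and Cxcl2 like Map3k8, Taco1os and A930007I19Rik (r = 0.98 to 0.99). Of the 30 closest genes within genotype, 25 had a length, and 22 of those were shorter than 3976 bases.

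Of 28 other chemokine ligands, 16 passed the filter on low counts, and the other 12 reached at most 35 counts in any library. Cxcl14, a CXC ligand of epithelia and brain, was the only one that rose. It was at 3.70, 1.11, 1.65 and 2.46 CPM in WT and at 75.2, 30.8, 24.6 and 25.5 CPM in 5xFAD, a log2 change of 4.15 ± 0.79 (17.8-fold, edgeR adjusted p = 0.0109). In the other pair it was at 1.80, 0.827, 0.830 and 8.18 CPM in Card9-/- and 6.22, 7.87, 18.9 and 34.4 CPM in Card9-/-5xFAD (2.73 ± 0.77, edgeR adjusted p = 0.115), where Card9-/- replicate 4 lay above the lower Card9-/-5xFAD libraries, and over both Card9 genotypes it rose by 3.44 ± 0.55 (edgeR adjusted p = 0.00105). Of 6 astrocyte markers, Gfap rose in 5xFAD against WT by 4.32 ± 0.76 and in Card9-/-5xFAD against Card9-/- by 2.81 ± 0.69, with 1 to 140 counts per library. Aqp4 rose in the average. Of all genes, 1.57%, 1.49% and 5.62% were called higher in these comparisons, in the same order. The part of these markers in Cxcl14 was not tested.

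4 of the 16 other ligands fell with the transgenes when both Card9 genotypes were averaged, where 5.73% of all genes did. Cxcl12, the ligand of CXCR4, fell by 1.61 ± 0.38 on the log2 scale (edgeR adjusted p = 0.0187), a call kept in each of the 16 fits without 1 library. It also fell in Card9-/-5xFAD against Card9-/-, from 3.84, 1.41, 3.85 and 6.87 CPM to 0.691, 0.685, 0.869 and 1.60 CPM, a call kept in 4 of those fits. Ccl22, a ligand of CCR4 made by dendritic cells, fell by 1.3 ± 0.39 (edgeR adjusted p = 0.0558), and Cx3cl1, the neuronal ligand of CX3CR1, fell by 1.58 ± 0.46 from levels of at most 2.94 CPM (edgeR adjusted p = 0.0528). These calls were kept in 10 and 11 of the 16 fits. Counts of Ccl22 were low, at 4 to 15 in the transgenic libraries and 6 to 62 in the others. Those of Cxcl12 were at 4 to 23 and at 21 to 65.

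Ccl17, the other CCR4 ligand of dendritic cells, was at 52.3, 4.02, 19.3 and 10.4 CPM in WT and at 5.00, 3.70, 3.24 and 1.36 CPM in 5xFAD. It was at 3.96, 2.40, 5.10 and 173 CPM in Card9-/- and at 0.888, 1.71, 3.30 and 24.4 CPM in Card9-/-5xFAD. The groups overlapped in both pairs, and Card9-/- replicate 4 held by far the highest value. The averaged log2 change was -2.69 ± 0.94 (edgeR adjusted p = 0.0985) with all libraries and -0.92 ± 0.64 without Card9-/- replicate 4 (edgeR adjusted p = 0.348), and in Card9-/-5xFAD against Card9-/- it turned from -2.70 to 0.84. The call was kept in 5 of the 16 fits without 1 library. The average without the 4 libraries of lowest microglia marker sum was -1.48 ± 0.43 (edgeR adjusted p = 0.0243). In that fit all 5 of these ligands, Cxcl14 included, passed in the average. It called 2523 of all genes higher and 2425 lower there, against 816 and 831 with all libraries.

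Of 18 chemokine receptors, 13 were tested, and none rose. 5 of the 13 fell with the transgenes over both Card9 genotypes, where 5.73% of all genes did, and 4 of them are described here. The median log2 change of the 13 was -0.85, that of the 16 other ligands was -0.36, and that of all genes was -0.15. Ccr1, the receptor for Ccl6 and Ccl9, fell by 0.87 ± 0.28, and Ccr2, the receptor for Ccl2, Ccl7 and Ccl12, fell by 1.31 ± 0.30 (edgeR adjusted p = 0.0717 and 0.0164). Cxcr2, the receptor for Cxcl2, and Ccr7, the homing receptor of dendritic cells, fell by 0.85 ± 0.24 and 1.60 ± 0.42 (edgeR adjusted p = 0.0466 and 0.031). Ccr7 was near the floor, at 2 to 5 counts in the transgenic libraries and 2 to 34 counts in the others. The calls of Ccr2 and Ccr7 were kept in all 16 fits without 1 library, that of Cxcr2 in 13 and that of Ccr1 in 5. All 4 passed without the 4 libraries of lowest microglia marker sum, where 2425 of all genes were called lower against 831 with all libraries.

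In the same average, with 5.73% of all genes called lower, 5 of 8 markers of border-associated macrophages (Mrc1, Lyve1, F13a1, Cd163 and Siglec1), 2 of 8 of neutrophils (Mmp8 and Ly6g) and 1 of 6 tested markers of monocytes fell, as did 1 of 6 markers of endothelial cells (Pecam1), while none of 10 microglia markers passed. None of 6 tested markers of T or NK cells, 2 of B cells, 5 of oligodendrocytes and 2 of neurons passed. Their part in the receptor values was not tested. Cxcr6, the receptor for Cxcl16, was at no more than 2.82 CPM in any library and did not pass. The atypical receptors Ackr3 and Ccrl2, which bind chemokines without signalling through G proteins, did not pass in any comparison.

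**Figure D4:**
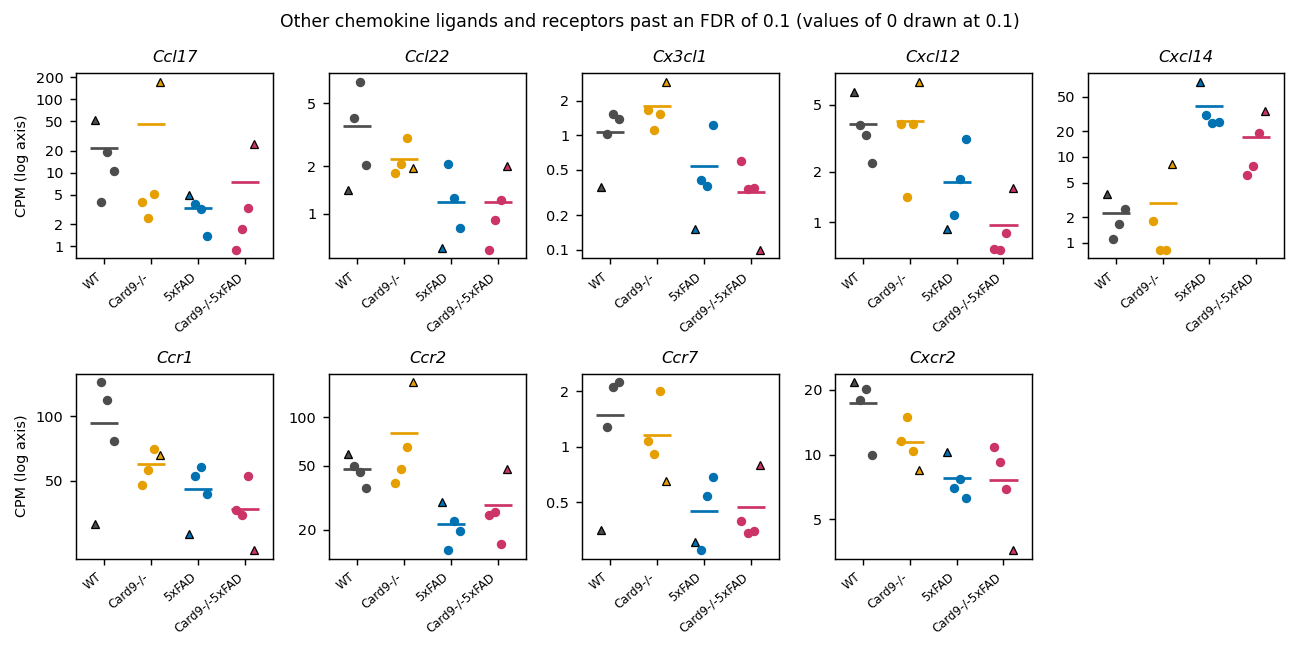
Other chemokine ligands and receptors (5 ligands and 4 receptors) that passed an adjusted p of 0.1 in any comparison, in CPM on a log axis, with 1 point per library and a bar at the mean of 4 libraries. Values of 0 are drawn at 0.1 CPM. Cxcl14 lies between 24.6 and 75.2 CPM in the 4 5xFAD libraries and between 1.11 and 3.70 CPM in WT.

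Responses to signals that can also induce chemokine genes were followed with 3 lists of genes. Of 12 interferon-stimulated genes, 2 (Isg15 and Bst2) rose in Card9-/-5xFAD against Card9-/- and 4 (also Oasl2 and Usp18) in the average, where Isg15 rose by 1.59 ± 0.35. Of all genes, 1.49% and 5.62% were called higher in these comparisons. Of 10 interferon-gamma response genes none rose and 4 (Ciita, Gbp3, Gbp5 and Iigp1) fell in the average, where 5.73% of all genes fell. Cxcl9 of the same pathway did not pass, at -1.27 ± 0.83 with all libraries and 0.67 without Card9-/- replicate 4. Of 30 early response genes, which are induced within minutes of stress, none passed in 5xFAD against WT. In the average 2 (Nr4a1 and Hspa1a) fell, where 5.73% of all genes fell. Their summed CPM ran from 4328 to 12312 in 5xFAD and from 8412 to 12549.6 in WT. With their mean level as a covariate Ccl6 stayed called, at 1.87 and 2.47, while the call of Cxcl16 in 5xFAD against WT was lost at 1.10 (edgeR adjusted p = 0.337).

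**Figure D5:**
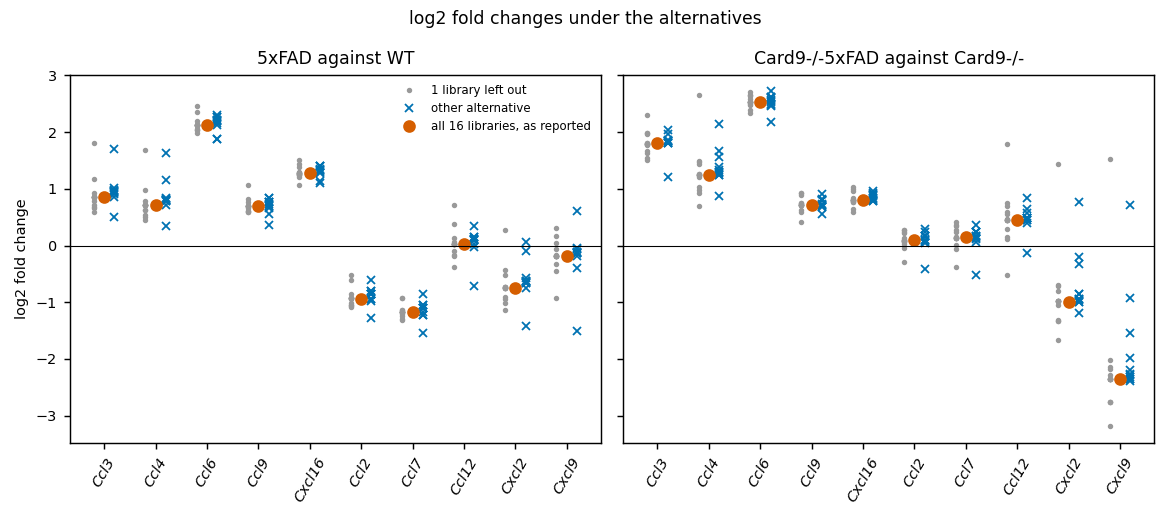
Log2 fold changes of the 10 chemokines in the 2 transgene comparisons as reported (large points), in 16 fits that each left out 1 library (dots) and under the other alternatives (crosses). Ccl6 stays between 1.87 and 2.46 in 5xFAD against WT and between 2.18 and 2.72 in Card9-/-5xFAD against Card9-/-, while Ccl12, Cxcl2 and Cxcl9 cross 0 in both.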

How the data were processed

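Gene-level read counts of 16 libraries from CD11b+ brain cells were used, 4 per genotype. The authors deposited whole-number counts for 55385 genes after aligning reads with HISAT2 to mm10 (GRCm38), filtering with SAMtools and counting with HTSeq. Versions and the strand setting are not given in the sources used here. All columns were matched to a sample by their labels. The labels describe mashing through a strainer before magnetic selection, the methods a papain digestion.

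Counts were tested with edgeR 4.0.16 (quasi-likelihood, TMM, filterByExpr with a minimum of 10, limma 3.58.1, R 4.3.3) in 1 fit of 16 libraries, and 14513 genes were tested. Two-sided p-values were adjusted by Benjamini-Hochberg over all of them, with a threshold of 0.1. SE was the log2 change over the root of F. CPM used TMM library sizes, and log2 CPM a prior count of 2. Exon lengths and positions came from GENCODE M21. The procedure was tested on simulated data. Alternatives were DESeq2 1.42.0, other scaling, filters and threshold, a replicate block, an early response covariate and leaving out each library.

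The members and lists were chosen with earlier results of these data known. Named were all 10 members, every listed gene past the threshold in any comparison, list members of highest mean CPM where none passed, and the 3 genes most alike to each member. Cxcr6 and Zmynd15 were added for their link to Cxcl16, and the other genes are named as marker examples. The precision is limited by 2970148 to 19333325 counts per library and by 4 libraries per genotype. Some genes that passed the threshold are not reported here.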

Additional observations from a re-analysis of the deposited data

Results flagged for a closer look

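In 3 of 40 groups of 4 libraries (10 chemokines in 4 genotypes), 1 library lay far from the other 3 by Dixon's criterion, which chance meets in about 1 in 20 groups. Ccl9 in 5xFAD replicate 4 was at 289 CPM, below 577 to 655 CPM in the other 5xFAD libraries. Cxcl2 and Cxcl9 in Card9-/- replicate 4 were at 399 and 120.4 CPM, where the other Card9-/- libraries had at most 23.4 and 2.52 CPM. That library also had the highest neutrophil marker sum, 6317 CPM, and the lowest microglia marker sum of its genotype, 13346 CPM, and the part of either in these values was not tested.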

How the results depend on the processing

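Ccl6 passed in both transgene comparisons under every alternative, with edgeR or DESeq2 adjusted p from 2.98e-08 to 0.0344 and from 1.3e-11 to 0.0248. The count of chemokines past the threshold was less stable. In 5xFAD against WT it went from 2 to 1, with Cxcl16 lost, without a filter on low counts, with at least 10 counts in every library, at a threshold of 0.05 and with the early response covariate, and it was 1 to 2 with 1 library left out. In Card9-/-5xFAD against Card9-/- it went from 1 to 2, with Ccl3 added, under DESeq2 on all 16 libraries or on the groups compared, and it was 1 to 3 with 1 library left out, reaching 3 without Card9-/- replicate 4, where Ccl4 also passed. The average gave 3, or 2 to 5 with 1 library left out, reaching 5 without WT replicate 1. 2 choices were made after seeing the data. The length slope covariate gave counts of 4, 2 and 7 in these comparisons, with 916, 845 and 3556 of all genes called. Leaving out the 4 libraries of lowest microglia marker sum gave 4, 4 and 5, with 1144, 2394 and 4948 of all genes called. The cause of these changes was not tested. Both comparisons of Card9 genotype and the interaction gave a count of 0 chemokines under every alternative run.

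Across all genes the number called ranged with the alternative. In 5xFAD against WT it was 304 as reported, 171 with at least 10 counts in every library, 565 with DESeq2 on all 16 libraries and 1144 without the 4 libraries. In Card9-/-5xFAD against Card9-/- it was 286, 96 with edgeR on the groups compared, 812 with DESeq2 on all 16 libraries and 2394 without the 4 libraries. In the average it was 1647, 902 with the early response covariate, 2487 with DESeq2 and 4948 without the 4 libraries. The replicate block gave counts of 2, 1 and 4 chemokines in the transgene comparisons, adding Ccl9 to the average, and 0 in the others. Over all 24 pairs of same-numbered libraries, r of their deviations ran from -0.71 to 0.73, with 5 of 16 libraries most alike to their own number. Within a Card9 genotype all such r were positive. For replicates 1 to 4 they were 0.71, 0.27, 0.29 and 0.54 between WT and 5xFAD. Between Card9-/- and Card9-/-5xFAD they were 0.53, 0.6, 0.13 and 0.73. The block was shared by all genotypes, and a pairing by number within a Card9 genotype was not tested. Cxcl9 had the lowest counts of the 10 chemokines, from 16 to 368 per library.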
